A study of Sus scrofa domesticus with 16 samples.

Results

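Cyclins, cyclin-dependent kinases (CDKs), CDK inhibitors and DNA replication genes were examined in the adrenal glands of 16 domestic pigs. The genes were taken by name from the annotation of the porcine array: symbols that begin with CCNA, CCNB, CCNC, CCND, CCNE, CCNG, CCNH, CCNI, CDK, CDC or MCM, and MKI67, TOP2A, PCNA, TYMS, RRM1, RRM2, UBE2C, BIRC5, AURKA and BUB1. Of the 6765 genes with a single symbol, 66 matched, through 94 probe sets, and each gene was read at the probe set with the highest mean signal over all arrays. MKI67 and BUB1 were not analysed here, nor were 2 probe sets whose annotation gives CDK6 for 2 gene numbers. CCND1, CCND3, CCNE1, CCNE2, CDK1, CDK4, CDC6, CDC7, MCM6 and MCM7 were also not among the 66 genes, so nothing is said of them here. The names are broader than the cell cycle: 9 of the genes are CDC42, a small GTPase of the cytoskeleton, with its effectors and kinases, and 13 are partners or other genes that share a prefix.

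Cyclins are proteins that switch on CDKs, and successive cyclin and CDK pairs carry a cell from growth through DNA copying to division. Cyclins of the D and E types act before DNA copying, cyclin A during it and cyclin B at mitosis. CDK inhibitors of the CDKN families hold the kinases back. The MCM proteins load onto DNA as the helicase that opens it for copying, while CDC45 joins that helicase when copying starts. Cyclins G1, G2 and I stand apart: CCNG1 is a target of p53, and CCNG2 is induced in cells that leave the cycle, by FOXO factors among others. In the adrenal cortex, new steroid-producing cells come from dividing cells under the capsule, and corticotropin is a known growth stimulus of the gland.

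Glands of 8 pigs labelled high stress, whose mixing treatment was of high aggressiveness, were compared with glands of 8 pigs labelled low stress, whose mixing treatment was of low aggressiveness. All were Sus scrofa domesticus, all had been mixed with unfamiliar pigs, and total RNA of each gland was put on 1 Affymetrix porcine array. According to the submitters, the groups were selected because their fighting and their plasma cortisol differed, so the comparison describes selected animals, with no unmixed group beside them. Age and the time from mixing to sampling are not given in the sources used here, and the signal of the Y-linked EIF1AY showed that 4 animals of each group carried a Y chromosome. In whole glands, fewer cells of a type and less RNA per cell cannot be told apart.

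Values are log2 of the deposited signal, so a difference of 1 is a doubling, and since probes differ in brightness, a level says nothing of one gene against another. The median signal of an array was 123 to 146 in low stress and 116 to 147 in high stress animals. The arrays fell into 2 sets of 8 by the signal of the bacterial labelling control dap alone. No label or file header says what these sets are, and each had 4 animals of each stress group (mean dap signal 358 in the set called low-spike here, against 2740 in the other, high-spike set). All 6 cortex markers on the array (STAR, CYP11A1, CYP17A1, HSD3B1, NR5A1 and MC2R) and all 5 of chromaffin cells (PNMT, CHGA, CHGB, SCG2 and DDC) passed the signal filter. Of 7 markers of T and B cells, CD3E, CD3G, CD2, CD4 and CD79B did not. Nor did KDR of endothelium, COL3A1 of fibroblasts and capsule, and ITGAM of myeloid cells. Summed marker signals overlapped between the groups in all 8 cell type lists, and no marker passed the stress comparison. Only smooth muscle markers were all higher in high stress (3 of 3, median log2 fold change 0.33, 1 at an unadjusted p under 0.05; summed signal 2620 to 15400 in low stress and 5430 to 14600 in high stress).

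Of the 66 genes, 56 passed a filter at a mean log2 signal of 6.15, the 40th percentile of all probe sets. The 10 that did not were CCNA2, CCNB2, CCNH, CDC20, CDC25C, CDKN2B, CDKN2C, MCM4, RRM2 and TYMS, 15.2% of the genes, where 19.4% of all 6765 genes lay below it. A probe set below the filter was dim on these arrays, which does not show that its gene was off. Of 21 genes grouped here as acting from DNA copying to mitosis (S to M phase genes), 8 lay below the filter. Among them were cyclin A2 (mean 4.22), cyclin B2 (5.59), the mitotic activator CDC20 and the nucleotide enzymes RRM2 (5.69) and TYMS (5.19). TOP2A, the topoisomerase that untangles copied DNA, and CDCA3, a trigger of mitotic entry, passed with means of 6.18 and 6.35. Of 52 further replication, checkpoint and mitosis genes 12 lay below the filter (23.1%, beside the 19.4% of all genes), among them PLK1, FOXM1, KIF20A, CENPF, HMMR and CHEK1.

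None of the 56 genes passed the comparison of high with low stress (limma, adjusted p under 0.05 over 14399 probe sets; 0% of all probe sets passed). At an unadjusted p under 0.05 there were 3 genes, CCNG2 on the low side and MCM2 and CDKN3 on the high side, against 3.19% of all probe sets. That is 2 higher and 1 lower of 56, beside 1.27% higher and 1.92% lower among all probe sets. The 56 genes had a median log2 fold change of 0.01, with 30 above and 26 below 0, while the median over all probe sets was -0.03. In no gene were the 2 groups fully apart (3 of 14399 probe sets, 0.0208%, were). The 95% confidence interval of a fold change reached a median of 0.31 log2 units to either side, and at most 0.88, for TOP2A.

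Other ways of fitting gave like counts, again with 0 genes past adjustment. With the spike-in set as a block, which takes the set's effect out of the spread, 4 of the 56 genes were at an unadjusted p under 0.05, 2 higher and 2 lower, against 6.38% of all probe sets (2.37% higher and 4.01% lower; 0.00694% passed adjustment). Quantile normalization gave 5 genes, 4 of them higher, against 2.95% of all probe sets (1.67% higher, 1.28% lower). Median centring gave 4 genes, 3 of them higher, against 3.08% (2.21% higher, 0.875% lower). The split of signs moved with the scaling, from 30 higher and 26 lower to 35 and 21 after quantile normalization and 41 and 15 after median centring. All probe sets moved the same way, from 41.6% above 0 to 49.6% and 60.8%.

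Within each spike-in set, each leading digit of the animal numbers belonged to 1 low and 1 high stress animal, which gave 8 pairs, though no label says that the digit marks a litter or pen. These pairs were formed after the data were seen. With the pairs as a block 0 of the 56 genes passed adjustment in limma and 4 were at an unadjusted p under 0.05 (9.17% of all probe sets were). MCM2 was higher in the high stress animal of all 8 pairs and was the 1 gene of 56 (1.79%) with that pattern, beside 0.771% of all probe sets. None of the 56 was lower in all 8, beside 0.945%. CDKN3, CDK2AP1, CDKN2AIPNL and CDC37 were each higher in 7 of 8 pairs. CCNG1, CCNG2, CCNI, CCNC and CDC34 were each lower in 7 of 8. The share of all probe sets with either pattern was not counted, so these 7 of 8 patterns have no background and nothing is concluded from them.

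**Figure D1:**
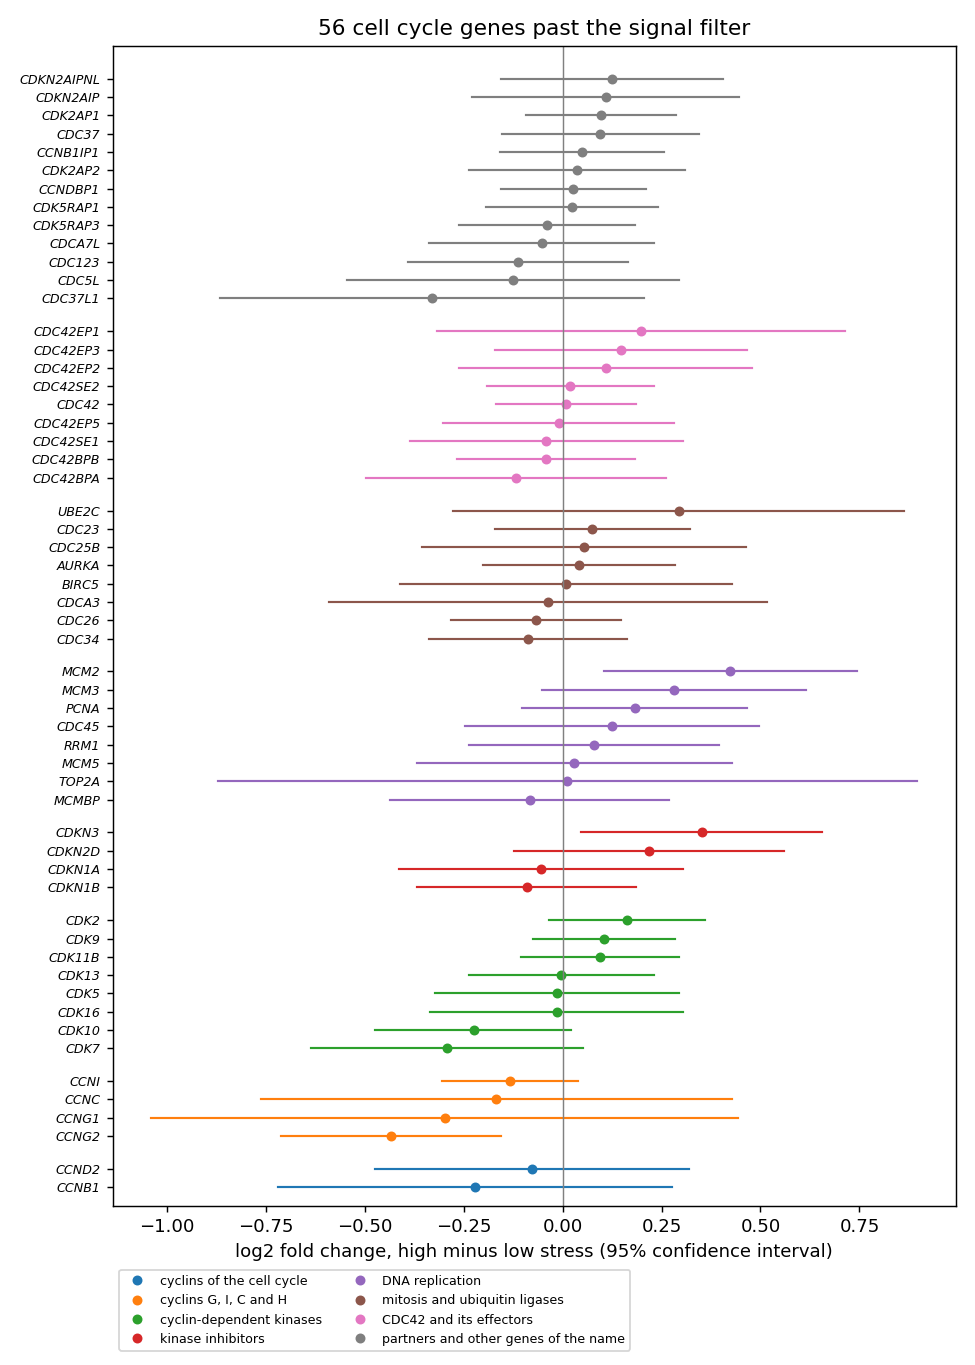
Log2 fold change of each of the 56 genes past the filter, high minus low stress (x axis, log2 units), as points with 95% confidence intervals from limma, grouped and coloured by role. The intervals of CCNG2 (-0.71 to -0.15), MCM2 (0.10 to 0.74) and CDKN3 (0.05 to 0.66) lie to 1 side of 0, and those of the others include it.

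All 4 cyclins of the G, I and C kinds past the filter had lower means in high stress glands, with log2 fold changes of -0.43 for CCNG2, -0.30 for CCNG1, -0.17 for CCNC and -0.13 for CCNI. All 4 were also lower after quantile normalization and after centring each array on its median. Of all probe sets, 41.6% were above 0 in the main fit, 49.6% after quantile normalization and 60.8% after median centring. CCNG2, known for its rise in cells that stop dividing, was on the list because its difference in these animals was already known, so its test is no independent support (gene number 100523979). Low stress animals had a lowest, median and highest log2 signal of 8.88, 9.23 and 9.57, and high stress animals 8.42, 8.87 and 9.25. All 8 high stress animals lay below the low stress mean of 9.28 ± 0.25 and all 8 low stress animals above the high stress mean of 8.85 ± 0.27 (SD, n = 8 each), but the ranges overlapped between 8.88 and 9.25. High stress replicates 6, 4, 7 and 3, at 8.42 to 8.79, lay below every low stress animal, and low stress replicates 7, 4, 2 and 3, at 9.27 to 9.57, above every high stress animal.

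The log2 fold change of CCNG2 was -0.43 (SE 0.13, 95% confidence interval -0.71 to -0.15, 0.74 of the low stress level; adjusted p = 0.999 in limma), so it did not pass over all probe sets. Blocking on the spike-in set gave an adjusted p of 0.682 in limma. Among low-spike arrays the value was -0.63 (SE 0.17) and among high-spike arrays -0.24 (SE 0.18). These 2 values were 0.40 apart (SE 0.25; adjusted p = 1 in limma). The level of CCNG2 was 0.05 higher in the high-spike set (SE 0.13). Leaving out any 1 animal left the fold change between -0.49 and -0.37. With the smooth muscle markers as a covariate it was -0.45, and with the actin ratio (3' over 5' signal, which rises as RNA gets shorter) -0.44. The actin ratio was 6.4 to 21.9 in low stress and 5.28 to 15.1 in high stress animals. How far RNA quality limits the signal levels was not tested.

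The other cyclins of this kind had intervals that included 0. CCNI, an atypical cyclin found in cells that no longer divide, such as neurons, varied least of the cyclins past the filter (SD 0.11 between animals of a group and set). Its lowest, median and highest signals were 12.42, 12.59 and 12.72 in low stress and 12.33, 12.42 and 12.59 in high stress, a fold change of -0.13 (95% confidence interval -0.31 to 0.04). In high stress 6 of 8 animals were below the low stress mean. CCNG1, the p53 target, ranged from 12.18 to 14.25 in low stress and from 12.12 to 14.20 in high stress, with medians of 13.31 and 12.66. This range of over 2 log2 units followed the spike-in sets, described further on, and its interval for stress ran from -1.04 to 0.44. With the smooth muscle markers as a covariate its fold change was -0.03, and that of CCNC turned from -0.17 to 0.06; the part of smooth muscle in these values was not tested further. CCNC, the cyclin of the Mediator kinase of transcription, had medians of 10.36 in low and 10.04 in high stress and an interval of -0.76 to 0.43. CCNH, which partners CDK7, was below the filter at 5.29.

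**Figure D2:**
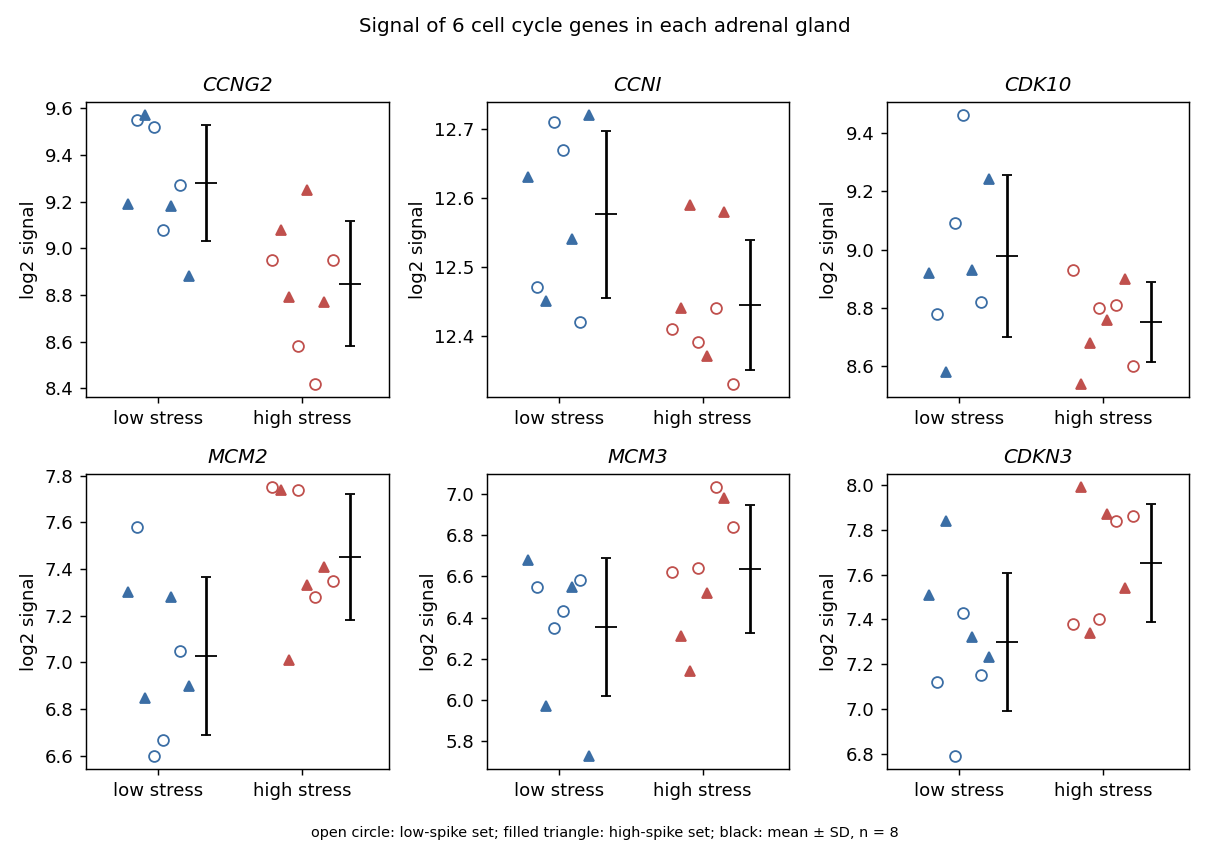
Log2 signal (y axis) of 6 genes in each animal, low stress in blue and high stress in red, with open circles for the low-spike and filled triangles for the high-spike set, and the mean ± SD of 8 animals in black. For CCNG2 the high stress animals sit at 8.42 to 9.25 and the low stress animals at 8.88 to 9.57; in every panel the 2 groups overlap.

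Of the cyclins that drive the cycle, CCND2 and CCNB1 passed the filter, and the intervals of both included 0. CCND2, which couples growth signals to the start of the cycle, had a lowest, median and highest signal of 11.02, 11.73 and 12.33 in low stress and 11, 11.74 and 12.15 in high stress. Its fold change was -0.08 (-0.48 to 0.32). CCNB1, the mitotic cyclin, had 6.19, 6.80 and 7.13 in low stress and 5.01, 6.70 and 6.98 in high stress. Without high stress replicate 6, the animal at 5.01, its fold change of -0.22 (SE 0.24) was nearer to 0, at -0.01.

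The 8 CDKs were 3 higher and 5 lower, but 6 higher and 2 lower after quantile normalization or median centring, scalings that moved the fold changes of all probe sets upward. CDK2, which drives DNA copying, had medians of 8.01 in low and 8.17 in high stress, with 7 of 8 high stress animals above the low stress mean (0.16, SE 0.09; adjusted p = 0.999 in limma). After quantile normalization the value was 0.21 and after median centring 0.24, both at an unadjusted p under 0.05. A second probe set of CDK2 gave 0.03 (SE 0.14). CDK10, which acts on transcription factors, had lowest, median and highest signals of 8.58, 8.92 and 9.46 in low stress and 8.54, 8.78 and 8.93 in high stress, all 8 high stress animals below the low stress mean (-0.22, SE 0.12). CDK7, the kinase that activates other CDKs and acts in transcription, had -0.29 (95% confidence interval -0.64 to 0.05). The fold changes of CDK5, CDK13 and CDK16 were between -0.01 and 0.00, each with an interval that reached at least 0.23 on both sides, while CDK9, the elongation kinase, had 0.11 (SE 0.08) and CDK11B 0.09 (SE 0.09).

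Among CDK inhibitors the best known, CDKN1A (p21) and CDKN1B (p27), had intervals on both sides of 0. CDKN1A had a lowest, median and highest signal of 7.91, 8.84 and 9.01 in low stress and 8.25, 8.70 and 8.87 in high stress (-0.06, 95% confidence interval -0.41 to 0.30). CDKN1B had 10.39, 10.76 and 11.19 against 10.37, 10.55 and 11.12 (-0.09, -0.37 to 0.19). CDKN2D (p19) had 0.22 (SE 0.16), and CDKN2B and CDKN2C were below the filter.

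CDKN3, a phosphatase that removes the activating phosphate of CDKs and is made mostly in dividing cells, had higher values in high stress. Its lowest, median and highest signals were 6.79, 7.28 and 7.84 in low stress and 7.34, 7.69 and 7.99 in high stress. Every high stress animal lay above the low stress mean of 7.30, but low stress replicate 3, at 7.84, stood among the highest. The fold change was 0.35 (SE 0.14, 1.28-fold; adjusted p = 0.999 in limma). It was 0.50 in the low-spike and 0.21 in the high-spike set, which were -0.29 apart (SE 0.27; adjusted p = 1 in limma). Without low stress replicate 4 (fold change 0.28) or without high stress replicate 2 (0.30) it was no longer at an unadjusted p under 0.05.

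Of the 8 replication genes past the filter 7 had a fold change above 0, a count that stayed at 7 under both other scalings, and none passed. Of all probe sets 41.6% were above 0, 49.6% after quantile normalization and 60.8% after median centring. Among the 7, MCM5 at 0.03 and TOP2A at 0.01 were close to 0. MCM2, a subunit of the replicative helicase, had lowest, median and highest signals of 6.60, 6.97 and 7.58 in low stress and 7.01, 7.38 and 7.75 in high stress. High stress replicates 1, 2 and 4, at 7.74 to 7.75, stood above all low stress animals, and low stress replicates 3, 4, 5 and 8, at 6.60 to 6.90, below all high stress animals. High stress replicates 3, 5, 6, 7 and 8, at 7.01 to 7.41, lay within the low stress range. Low stress replicates 1, 2, 6 and 7, at 7.05 to 7.58, lay within the high stress range. The fold change was 0.42 (SE 0.15, 1.34-fold; adjusted p = 0.999 in limma). It was 0.56 in the low-spike and 0.29 in the high-spike set, -0.27 apart (SE 0.31; adjusted p = 1 in limma). The other 2 probe sets of MCM2 were below the filter.

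MCM3, a second subunit of the helicase, had 5.73, 6.49 and 6.68 in low stress and 6.14, 6.63 and 7.03 in high stress (0.28, SE 0.16; adjusted p = 0.999 in limma). Low stress replicates 8 and 3, at 5.73 and 5.97, and high stress replicate 3, at 6.14, lay below the filter value, which limits how well the difference can be sized. With the smooth muscle markers as a covariate it was 0.15. MCM5 of the same ring had 0.03 over all animals, -0.35 in low-spike and 0.41 in high-spike animals. MCM5 was the 1 gene of 56 whose sets differed at an unadjusted p under 0.05, where 2.92% of all probe sets did (1.63% with the more positive and 1.3% with the more negative fold change in the high-spike set), and its adjusted p was 1 in limma. PCNA, the sliding clamp of the polymerases, had medians of 9.92 and 10.04 (0.18, 95% confidence interval -0.10 to 0.47), CDC45 0.12 (-0.25 to 0.50) and RRM1, the large subunit of ribonucleotide reductase, 0.08 (-0.24 to 0.39). TOP2A spread most, from 4.21 to 7.94 in low stress and from 4.86 to 6.81 in high stress, around nearly equal means of 6.18 ± 1.1 and 6.19 ± 0.71 (SD, n = 8 each). MCMBP, which binds the MCM complex, had -0.08 (SE 0.17). RRM2, below the filter, had a median of 5.37 in low and 6.03 in high stress and was not compared.

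None of the 8 genes of mitosis and of its ubiquitin ligases passed. UBE2C, the ubiquitin carrier of the anaphase-promoting complex, had a lowest, median and highest signal of 5.67, 7.09 and 7.92 in low stress and 6.48, 7.28 and 7.95 in high stress (0.29, 95% confidence interval -0.28 to 0.86). The kinase AURKA had 0.04 (-0.20 to 0.28), BIRC5 of the chromosomal passenger complex 0.01 (-0.41 to 0.43) and the CDK-activating phosphatase CDC25B 0.05 (-0.35 to 0.46). CDCA3 had -0.04 (-0.59 to 0.52). The subunits CDC23 and CDC26 of the anaphase-promoting complex had 0.08 (SE 0.12) and -0.07 (SE 0.10), and CDC34, the carrier of the SCF ligase, -0.09 (SE 0.12).

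None of the genes around CDC42 and none of the partner and other genes passed. The 9 genes around CDC42 had a median fold change of 0.01 and a range of -0.12 to 0.20, and CDC42 itself had 0.01 (95% confidence interval -0.17 to 0.19), while its second probe set gave 0.26 (SE 0.15). Among the 13 partner and other genes the largest value was that of CDC37L1, a co-chaperone related to CDC37, at -0.33 (SE 0.25). It ranged from 7.92 to 9.04 in low stress and from 7.19 to 9.09 in high stress. With the set as a block its standard error was 0.15 (adjusted p = 0.782 in limma), with the smooth muscle covariate its fold change was -0.17, and a second probe set gave -0.40 (SE 0.185) without the block. The other 12 lay between -0.13 and 0.12.

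Further genes of the pathway also gave 0 calls. Of 40 other replication, checkpoint and mitosis genes past the filter 19 were higher and 21 lower, none passed, and 2 were at an unadjusted p under 0.05 (3.19% of all probe sets were), both higher (1.27%). With the set as a block there were 2 higher and 2 lower (6.38% of all probe sets), the lower ones being the damage kinase ATM at -0.53 and GMNN, an inhibitor of replication licensing, at -0.23, with adjusted p = 0.690 and 0.782 in limma. The 2 without the block were CKS2, a small subunit of mitotic CDKs (9.92 ± 0.23 in low and 10.29 ± 0.36 in high stress, SD, n = 8 each; fold change 0.37, SE 0.15), and TUBB, a beta tubulin (0.21, SE 0.09). Next by p came RPA1, which coats single-stranded DNA, at 0.21 (SE 0.10), and the checkpoint protein BUB3 at 0.17 (SE 0.09). Of 22 genes of the RB, E2F, p53 and FOXO axis 5 were higher and 17 lower. The split was 9 higher and 13 lower after quantile normalization and 14 higher and 8 lower with median centring. The share of all probe sets above 0 went from 41.6% to 49.6% and 60.8%. At an unadjusted p under 0.05 in limma 0 were higher and 1 lower (1.27% and 1.92% of all probe sets). With the set as a block 0 were higher and 2 lower (2.37% and 4.01%). BTG1, an antiproliferative gene, had the smallest p of that list at -0.30 (SE 0.12; adjusted p = 0.999 in limma). The p53 phosphatase PPM1D had -0.25 (SE 0.19), the MAX partner MXD4 -0.13 (SE 0.10) and the damage-response gene GADD45A 0.23 (SE 0.19). FOXO1, a regulator of CCNG2 in other tissues, had -0.11 (SE 0.12).

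More of these genes differed between the spike-in sets than between the stress groups. Of the 56 genes 18 differed between the sets in limma at an adjusted p under 0.05 (40.1% of all probe sets did), 10 higher and 8 lower in the high-spike set. At an unadjusted p under 0.05 there were 24 genes, 11 higher and 13 lower (48.9% of all probe sets, 27.2% higher and 21.7% lower). Quantile normalization gave 8 higher and 13 lower and median centring 6 higher and 16 lower. CCNG1 was 1.28 log2 units higher in the high-spike set (SE 0.17), CCNC 1.0 (SE 0.15), TOP2A 1.17 (SE 0.32) and CDC37L1 0.85 (SE 0.15). CDC5L, a splicing factor, was 0.65 higher, whereas CDK5 was 0.41 lower and CDC42EP5 0.40 lower. For CCNG1 every low-spike low stress animal lay below every high-spike low stress animal, and likewise every low-spike high stress animal below every high-spike high stress animal. Stress and set were balanced, so the set widened the spread without shifting the stress difference. For stress, the low-spike animals alone gave 5 genes at an unadjusted p under 0.05, 3 higher and 2 lower (7.38% of all probe sets, 2.17% higher and 5.21% lower). The high-spike animals alone gave 0 genes (2.83%, 1.11% higher and 1.72% lower), and 0 passed adjustment in limma in either. None of the 56 genes passed the test of a stress difference that depends on the set (0% of all probe sets did), and 39 of 56 (69.6%) had the same sign in both sets, as had 57.5% of all probe sets.

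**Figure D3:**
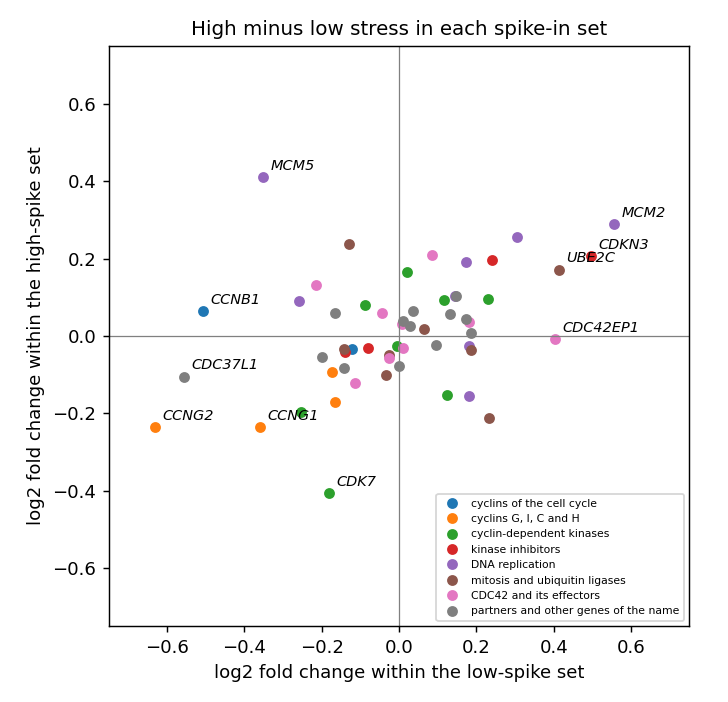
Log2 fold change, high minus low stress, of the 56 genes among low-spike animals (x axis) and among high-spike animals (y axis), 4 animals of each stress group in each, coloured by role. CCNG2 sits at -0.63 and -0.24, MCM2 at 0.56 and 0.29, and MCM5 and CCNB1 lie at opposite signs in the 2 sets.

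**Figure D4:**
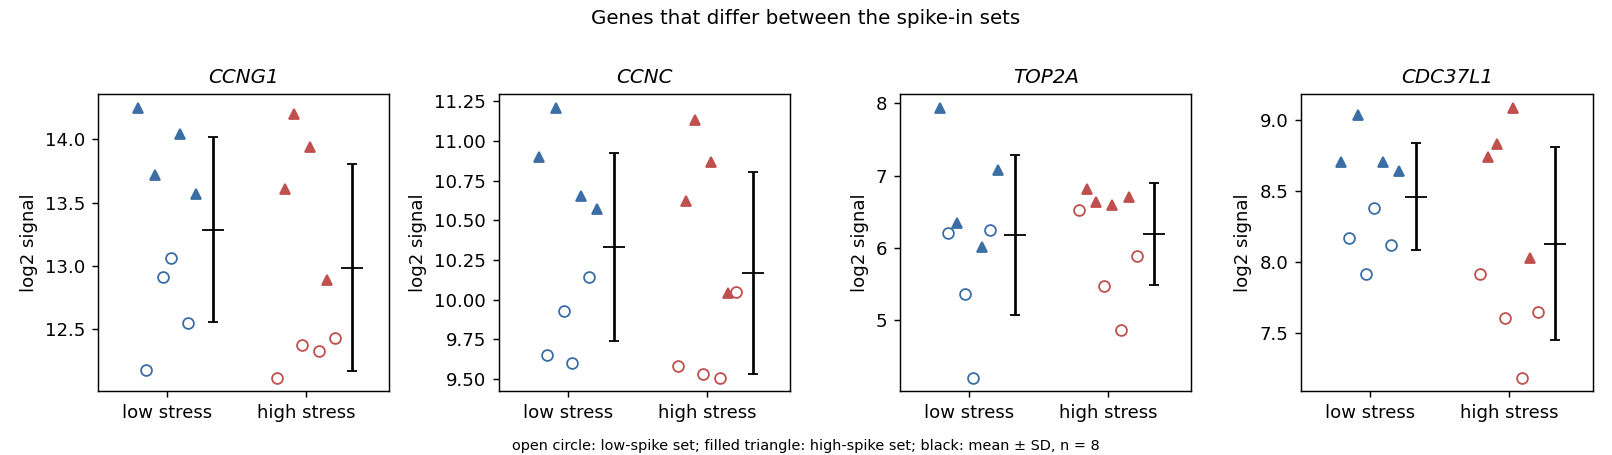
Log2 signal (y axis) of CCNG1, CCNC, TOP2A and CDC37L1 in each animal by stress group (x axis), with open circles for the low-spike and filled triangles for the high-spike set, and the mean ± SD of 8 animals in black. In both stress groups most triangles sit above the circles, by 1.28 log2 units on average for CCNG1, while the means of low and high stress overlap within their SD.

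Co-variation of the S to M phase genes from animal to animal was described apart from stress and set. After the mean of each stress group within each set was removed, the 13 such genes past the filter had a mean pairwise Pearson r of 0.16 over 16 animals, against 0.01 over all pairs of the 5455 genes tested, and 50 of their 78 pairs were above 0. All 56 genes together had a mean r of 0.01, the 8 DNA replication genes 0.07 and the 8 mitosis genes 0.06, so the value depended on which genes were grouped, and no test was made of these means. Signals of probe sets on 1 array share its labelling and scaling. The r of BIRC5 with CDCA3 was 0.76 (Spearman rho 0.74; permutation p = 0.00018 and 0.00029, two-sided, labels exchanged within stress group and set; adjusted p = 0.0140 over the 78 pairs), 0.89 within the low-spike and 0.63 within the high-spike set. Without the 2 animals farthest from the median of BIRC5 it was 0.74. TOP2A with BIRC5 had an r of 0.65 (rho 0.64; permutation p = 0.00084 and 0.00253, adjusted p = 0.0328), 0.84 and 0.44 within the sets, and 0.55 without the 2 animals farthest from the median of TOP2A. These 2 of 78 pairs passed the adjustment. Their genes were dim, with means of 6.18 for TOP2A, 6.35 for CDCA3 and 6.79 for BIRC5, beside the filter value of 6.15. TOP2A fell to 4.21 in low stress and 4.86 in high stress animals. CCNB1, in the pairs that follow, had a mean of 6.60. What low signal adds to these correlations was not tested.

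The r of CCNB1 with CDCA3 was 0.77 (rho 0.70; permutation p = 0.00441 and 0.0154) and that of CCNB1 with TOP2A 0.74 (rho 0.79; permutation p = 0.00300 and 0.00313), but neither passed (both adjusted p = 0.0688). CDKN3 and PCNA each had an r above 0 in 2 of 12 pairs. PCNA and CDC45 had an r of -0.75 (rho -0.60; permutation p = 0.0126 and 0.0292, adjusted p = 0.104), and CDKN3 and CCNB1 one of -0.38 (rho -0.39; permutation p = 0.188 and 0.167, adjusted p = 0.609). The mean log2 signal of the 13 genes, as a description, was 6.89 to 7.47 in low stress with a median of 7.11, and 6.97 to 7.53 in high stress with a median of 7.29. The groups overlapped over most of their range.

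**Figure D5:**
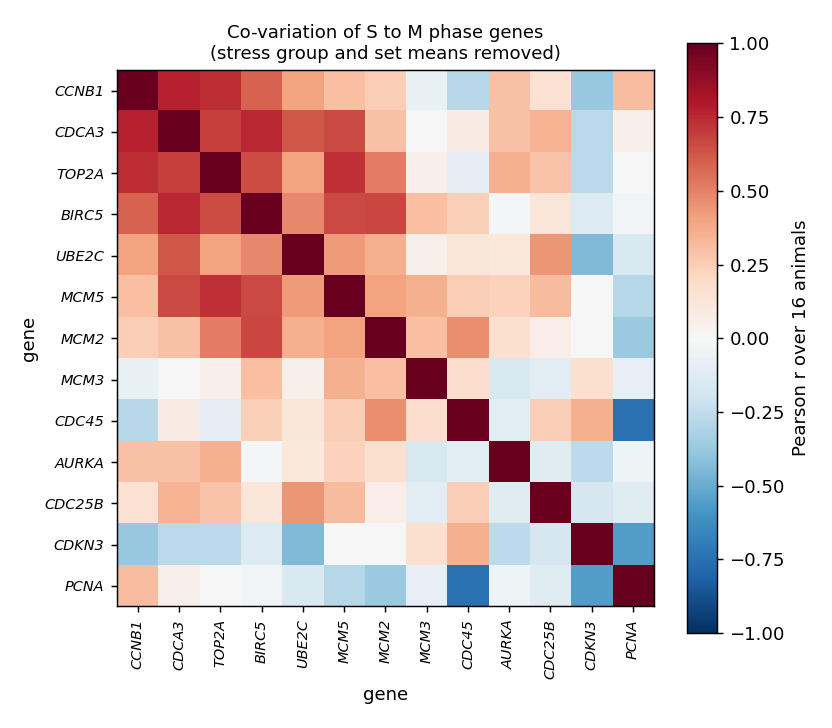
Pearson r over 16 animals, from -1 (blue) to 1 (red), between 13 genes of the S to M phases (both axes) after removal of stress group and set means. CCNB1, CDCA3, TOP2A, BIRC5, UBE2C and MCM5 have only positive values among themselves, with 0.77 for CCNB1 and CDCA3, while CDC45 and PCNA stand at -0.75.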

How the data were processed

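The deposited table holds linear intensity values, MAS5 signals made by the authors in version 1.1.1 of Affymetrix Expression Console (per the submitters' processing notes), 1 column per animal (0 columns unused). The mean of each array without the top and bottom 2% of probe sets was 500, so arrays had been scaled as a whole. Signals were taken to log2, 124 controls set aside, and probe sets whose mean fell below the 40th percentile (6.15 on the log2 scale, 71.1 as signal) left out, which kept 14399 of 23999. Genes were named from the platform annotation (10069 probe sets with 1 symbol, 198 with several, 13732 with none); 9961 matched the Sscrofa11.1 gene table by gene number and 0 symbols changed. That table was used for names only, since the array files name no build.

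The stress groups entered a linear model in limma 3.58.1 under R 4.3.3 (eBayes, two-sided, Benjamini-Hochberg over all probe sets kept, threshold 0.05), and the genes described were read from that fit. The spike-in sets, which no label names, were split at the midpoint of the mean log2 dap signal. Correlations between genes were tested with 100000 permutations within stress group and set (smallest possible p 1e-05). The code was tested on simulated data. The members, the gene lists and the alternatives were chosen with earlier results of these data known, CCNG2 among them. The genes named are, by rule, the 10 members of smallest p on each side, the 5 with the highest signal, a fixed set of cell cycle regulators and the 4 with the smallest p in each further list. Any other gene named was chosen after its values were seen. Alternatives covered the filter, scaling, pseudocount (23.5, the 20th percentile of signal), prior, weights, blocks, covariates, probe set choice and each animal left out. Plots used matplotlib 3.10.9 (Python 3.11.15). Depth does not apply to arrays; their number limits the precision.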

Additional observations from a re-analysis of the deposited data

Results flagged for a closer look

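In 8 of 112 gene and group combinations (56 genes, 2 stress groups of 8), 1 animal stood apart from the other 7 by Dixon's ratio, where chance alone gives about 1 in 20. CCNB1 was 5.01 in high stress replicate 6, against 6.29 to 6.98 in the others. CDC45 was 6.53 in high stress replicate 3 (others 7.07 to 7.48) and 7.90 in low stress replicate 2 (others 6.53 to 7.17). CDC23 was 8.46 in high stress replicate 4 (others 8.95 to 9.17). In low stress, CDK9 was 10.02 in replicate 3 (others 10.31 to 10.39) and CDK16 was 8.82 in replicate 7 (others 7.95 to 8.33). Low stress replicate 5 was the lowest animal for both CDC42EP1, at 6.74 (others 8.01 to 8.95), and CDC42EP3, at 9.31 (others 9.86 to 10.31). None of these animals was left out of the comparisons. CCNG2, MCM2 and CDKN3 had no such animal.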

How the results depend on the processing

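No gene of the 56 passed adjustment in limma under any of 18 alternatives or with any of 16 animals left out. The number at an unadjusted p under 0.05, 3 over all animals, was 1 with the filter at the 60th percentile, which leaves out MCM2 and CDKN3 (3.01% of all probe sets were at that p), 5 after quantile normalization (2.95%), 5 within the low-spike set (7.38%), 0 within the high-spike set (2.83%) and 6 with the actin ratio as a covariate (12.9%). It was 2 to 4 with 1 animal left out (2.52% to 4.73%), and the cause of these shifts was not tested beyond the filter. Among all probe sets, the split at an unadjusted p under 0.05 was 183 higher and 277 lower, 240 and 185 after quantile normalization and 318 and 126 after median centring. Over the 18 alternatives CCNG2 kept its sign, at -0.63 to -0.24, with an unadjusted p under 0.05 in 17 of them. MCM2 had 0.29 to 0.56 over the 16 alternatives that measured it, and CDKN3 0.21 to 0.50 over 17. With the actin ratio as a covariate CCNG1 had -0.52 and CDC37L1 -0.50, and with smooth muscle markers -0.03 and -0.17, against -0.30 and -0.33 without either. The mean r of the S to M phase genes was 0.12 to 0.19 with 1 animal left out. The covariates for smooth muscle and actin and the pairs were chosen after the data were seen. The labels give the animals no replicate numbers. Blocking on the leading digit of each animal's number gave 3 genes at an unadjusted p under 0.05 (2.96% of all probe sets), with the set added 3 (6.34%), and with the 8 pairs 4 (9.17%). Deviations of paired animals from the means of their stress group and set correlated over probe sets with r from -0.05 to 0.28, so not every pair deviated together. Promoter and protein comparisons were not run.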
